A study of Rattus norvegicus with 11 samples.

Results

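The cholesterol transport genes described here were 9 of the 32623 genes of a table of RNA from rat peripheral leukocytes, namely Apoe, Pltp, Lpl, Abca1, Abcg1, Scarb1, Soat1, Nr1h3 and Srebf2. They were chosen by gene name, with earlier results of these data known, and each stood on 1 row of the table. The animals were male Wistar rats, 7 weeks old when supplied. In 4 of them collagen-induced arthritis (CIA) was induced with type II collagen in incomplete Freund's adjuvant (IFA-CII), with a boost on day 7. Blood was drawn repeatedly, and 2 samples of each of the 4 rats were sequenced. The Nampt++ samples were from around day 8 and the Nampt+ samples from around day 14. The authors assigned these statuses by their own PCR of Nampt, so the CIA samples were picked by the level of a gene measured in the same cells. The third group was 3 normal healthy controls, whose sampling day is not stated. The cells were those left after lysis of the red cells of peripheral blood, a mixture of leukocytes, so that in every value given here fewer cells of a type and less RNA per cell cannot be told apart.

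Apolipoprotein E, the product of Apoe, is a secreted protein of lipoprotein particles that takes up cholesterol leaving macrophages and binds the receptors of the low density lipoprotein family. Macrophages export cholesterol through the transporters ABCA1 and ABCG1 and store the excess as esters made by SOAT1. The nuclear receptor LXR, encoded by Nr1h3 and Nr1h2, senses oxysterols and raises the transcription of Apoe, Abca1, Abcg1, Lpl and Pltp, whereas SREBP2, encoded by Srebf2, raises cholesterol synthesis and uptake when sterols are short.

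The promoters of 6 of the 9 genes were matched in the RefSeq promoter table of build GRCr8, and the 250 bases before the start site are shown for 3 genes that the results below set apart. Apoe and Abca1 had the 2 lowest fitted differences of the genes tested, and Srebf2 had the narrowest range between samples. The Apoe stretch is that of 1 of its 3 listed start sites, at chr1:88484700-88484949 on the minus strand, with 2 GC boxes (GGGCGG on either strand) in capitals. The Abca1 stretch lies at chr5:72596474-72596723 on the minus strand, and its capitals mark the closest match to an LXR element, taken as 2 AGGTCA half-sites 4 bases apart with at most 3 mismatches over their 12 letters. The Srebf2 stretch lies at chr7:115543057-115543306 on the plus strand, and its capitals mark a sterol element (ATCACCCCA).
Apoe: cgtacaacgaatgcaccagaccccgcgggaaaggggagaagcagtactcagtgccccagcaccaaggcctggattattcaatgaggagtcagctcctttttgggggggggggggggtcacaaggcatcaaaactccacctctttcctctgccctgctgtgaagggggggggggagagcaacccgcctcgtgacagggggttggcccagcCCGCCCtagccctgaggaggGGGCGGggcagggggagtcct
Abca1: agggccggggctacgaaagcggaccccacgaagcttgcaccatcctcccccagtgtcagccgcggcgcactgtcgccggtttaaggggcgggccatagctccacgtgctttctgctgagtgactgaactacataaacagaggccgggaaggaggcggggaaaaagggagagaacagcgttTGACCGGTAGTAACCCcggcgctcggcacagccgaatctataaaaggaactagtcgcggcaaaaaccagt
Srebf2: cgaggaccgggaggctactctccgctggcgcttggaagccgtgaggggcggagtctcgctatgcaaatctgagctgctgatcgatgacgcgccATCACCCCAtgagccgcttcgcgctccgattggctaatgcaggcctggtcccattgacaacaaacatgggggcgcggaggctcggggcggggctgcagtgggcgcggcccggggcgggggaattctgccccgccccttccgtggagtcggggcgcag
Over all 33469 promoters of that table, searched on both strands from 250 bases before to 50 bases after the start, 33.1% held a GC box, 21.9% an LXR element under this rule and 0.245% the sterol element. A match describes the letters only. The 250 bases were 64.4% G or C in Apoe, 59.6% in Abca1 and 68.4% in Srebf2, against a median of 51.2% over all promoters.

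Total counts per sample lay between 65340027 and 85819418, and haemoglobin genes took from 6.84% to 42.8% of them. Monocyte markers were present, with 8 of the 9 found at a mean of at least 1 FPKM (fragments per gene length and per sample total, the level used throughout) and Cd163 listed at 0 in all samples. One deposited protocol speaks of retinas, but 7 retina markers summed to no more than 1.93 FPKM in any sample, with Crx, Nrl and Rbp3 at 0. Of the 5 hepatocyte markers Alb, Ttr and Serpina1 were at 0, and of the 5 adipocyte markers Adipoq and Lep were. The hepatocyte sum was 65.2 to 251 FPKM, nearly all of it Tf, and the adipocyte sum 1.499 to 10.3 FPKM, nearly all of it Fabp4. Nampt itself was at 10.1 to 46.5 FPKM in the Nampt++ samples, 11.4 to 36.9 FPKM in the Nampt+ samples and 13.5 to 32.9 FPKM in the controls, so the groups overlapped in the gene by which they were named (log2 fold change of -0.38 ± 0.43 in Nampt+ against Nampt++, SE, edgeR adjusted p = 0.9996). By edgeR's quasi-likelihood test no gene of the table had an adjusted p under 0.05 in any comparison, while 256, 176 and 98 genes had an unadjusted p under 0.05 in Nampt+ against Nampt++, Nampt++ against control and Nampt+ against control, and DESeq2 gave 5, 5 and 4 genes with an adjusted p under 0.05.

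All 9 genes were detected in all 11 samples, at levels that differed widely between genes. By mean FPKM over the 11 samples, Soat1 was the highest at 25.1, followed by Srebf2 at 22.0, Abcg1 at 19.6, Pltp at 17.6 and Apoe at 11.3, then Scarb1 at 7.93, Nr1h3 at 1.903, Abca1 at 1.72 and Lpl at 0.381. Of the neighbours in this order, only Scarb1 and Nr1h3 had ranges that did not overlap. The order of Apoe and Scarb1 was carried by a single sample, since Apoe was above Scarb1 in 4 of 11 samples. Abca1 was above Lpl in 11 of 11 samples although their ranges overlapped. Spread between samples also differed, with a highest level 68.4 times the lowest for Lpl, whose lowest value rests on 4 counts, 14.5 times for Apoe, 12.1 times for Abca1 and 6.93 times for Nr1h3, but 2.11 times for Srebf2. The coefficient of variation of FPKM ran from 21.6% for Srebf2 to 122% for Apoe. Among other genes of the pathway Olr1 (a scavenger receptor for oxidised lipoproteins) had the highest mean, at 119 FPKM. Plin2 (a coat protein of lipid droplets) followed at 92.7 FPKM and Smpdl3a (a phosphodiesterase) at 90.6 FPKM.

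**Figure D1:**
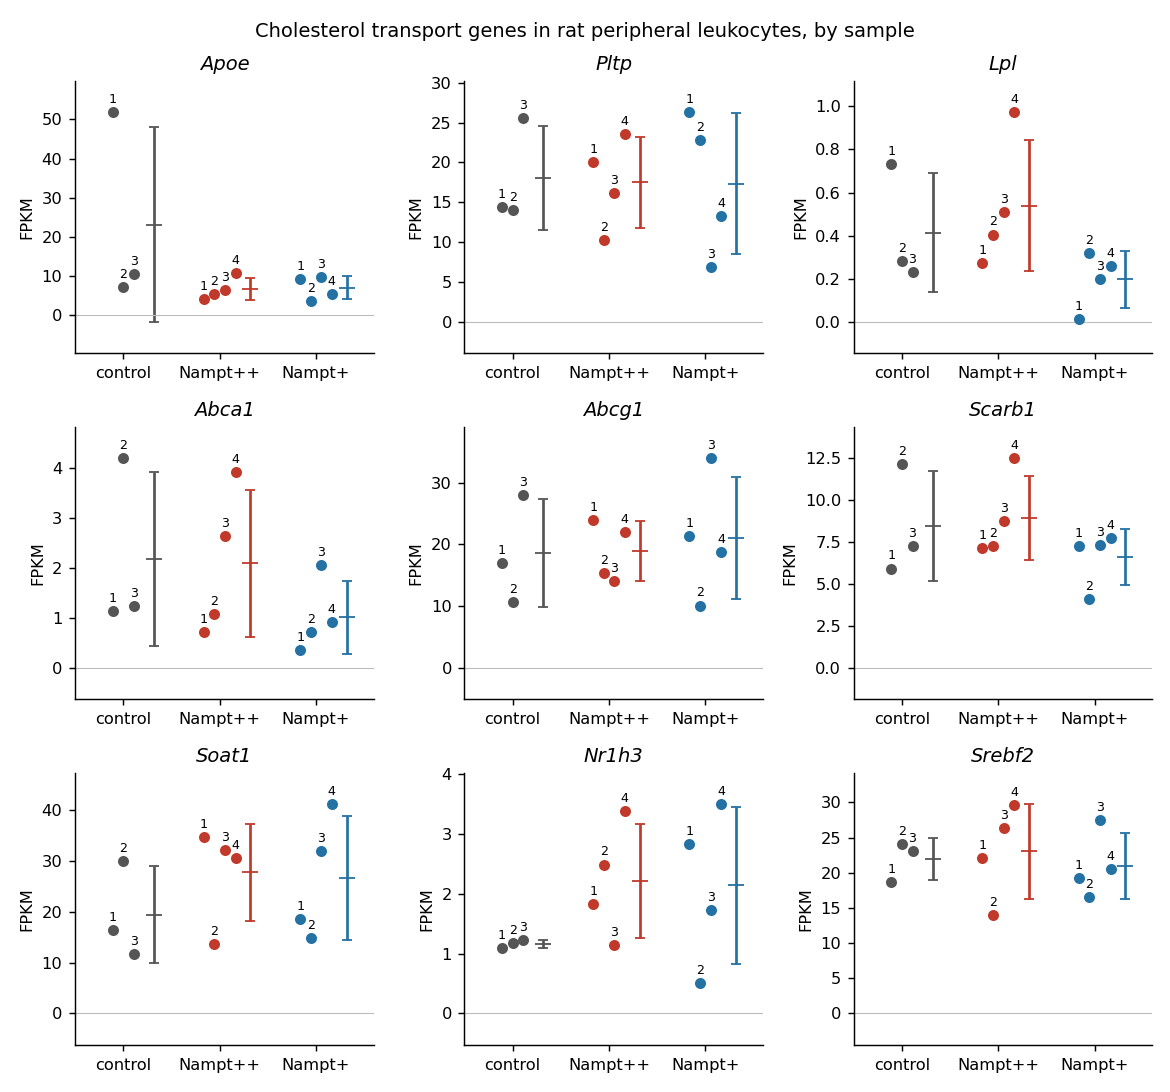
FPKM of the 9 genes (y axis, linear, a separate scale per gene) in the controls, Nampt++ and Nampt+ samples (x axis), each point a sample with its replicate number, which marks the same rat in both CIA groups, and each bar the group mean ± SD. Control 1 stands alone for Apoe at 51.8 FPKM, and the groups overlap for every gene.

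Apoe was lower in both CIA groups than in the controls by the group means, and the difference came from 1 control. In the table Apoe (ENSRNOG00000018454) lies at chromosome 1, 80612895 to 80617057, on the minus strand, in a genome build not named in the sources used here. Its FPKM was 51.8, 7.07 and 10.5 in controls 1 to 3, 3.96, 5.44, 6.38 and 10.7 in Nampt++ samples 1 to 4, and 9.24, 3.57, 9.78 and 5.44 in Nampt+ samples 1 to 4. Control 1 was 4.86 times the highest of the other 10 samples, and controls 2 and 3 lay inside the range of the CIA samples, so the groups overlapped. The count behind control 1 was 5986, against 411 to 1392 in the other samples, so counting error was small in all of them.

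Group means of Apoe were 23.1 ± 24.9 FPKM in the controls (SD, n = 3), 6.61 ± 2.88 FPKM at Nampt++ (SD, n = 4) and 7.01 ± 3.00 FPKM at Nampt+ (SD, n = 4). A gene was called when its group means differed over 2-fold with an unadjusted p under 0.05. By this rule Apoe was lower in Nampt++ samples than in controls, with a log2 fold change of -1.86 ± 0.66 (SE, edgeR adjusted p = 0.9999). It was the only one called of the 8 genes tested there, beside 0.686% of all 11219 genes tested. It was also called lower in Nampt+ samples than in controls, at -1.74 ± 0.64 (SE, edgeR adjusted p = 0.99999), again as the only one of the 8, beside 0.497% of all 11269 genes tested. Both comparisons use the same 3 controls, so the second repeats the weight of control 1. An exact two-sided permutation test of log2(FPKM + 1) over the samples gave p = 0.171 at Nampt++ and p = 0.229 at Nampt+ against the controls, where 4 samples against 3 cannot go below 0.0571. Such a test was made for each of the 9 genes in each comparison, 27 in all, and the lowest p was 0.0571. Only the tests of Nampt+ against Nampt++, with 4 samples against 4, could have given a p under 0.05, and 0 did. In Nampt+ against Nampt++ the log2 fold change was 0.12 ± 0.30 (SE, exact permutation p = 0.971), and Apoe was higher at Nampt+ in 2 of the 4 rats and lower in the other 2.

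Without control 1 neither difference of Apoe was called. The log2 fold change then became -0.44 for Nampt++ and -0.33 for Nampt+ against the other 2 controls, whose mean was 8.79 FPKM. The call was also lost at Nampt++ without Nampt++ sample 1 (-1.66) and at Nampt+ without Nampt+ sample 2 (-1.69) or sample 4 (-1.59), where the unadjusted p rose above 0.05. With all samples DESeq2 gave -1.85 and -1.73 but set no p for Apoe. Control 1 also had the highest summed level of 6 NK cell markers, 393 FPKM against 135 and 173 FPKM in the other controls, 59.5 to 214 FPKM at Nampt++ and 55.8 to 245 FPKM at Nampt+, and 5 of the 6 markers were highest there. Over the 11 samples Apoe and this sum had a Pearson r of 0.78 and a Spearman rho of 0.73 on the log2(FPKM + 1) scale, and r was 0.81 over the 10 samples without control 1. Of the 12 marker sums it had the highest r with Apoe. The T cell sum had an r of 0.52 and a rho of 0.71, and an r of 0.64 without control 1. In control 1, 3 of 7 T cell markers were the highest of all samples. There 4 of 4 basophil and mast cell markers were the highest of the controls. The part of any of these cells in the level of Apoe was not tested. The monocyte marker sum of control 1, 5653 FPKM, of which Lyz2 was 5507 FPKM, lay within the range of the other samples. Of the 8 monocyte markers, however, 5 were the lowest of the 3 controls in control 1 and 1 was the highest.

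**Figure D2:**
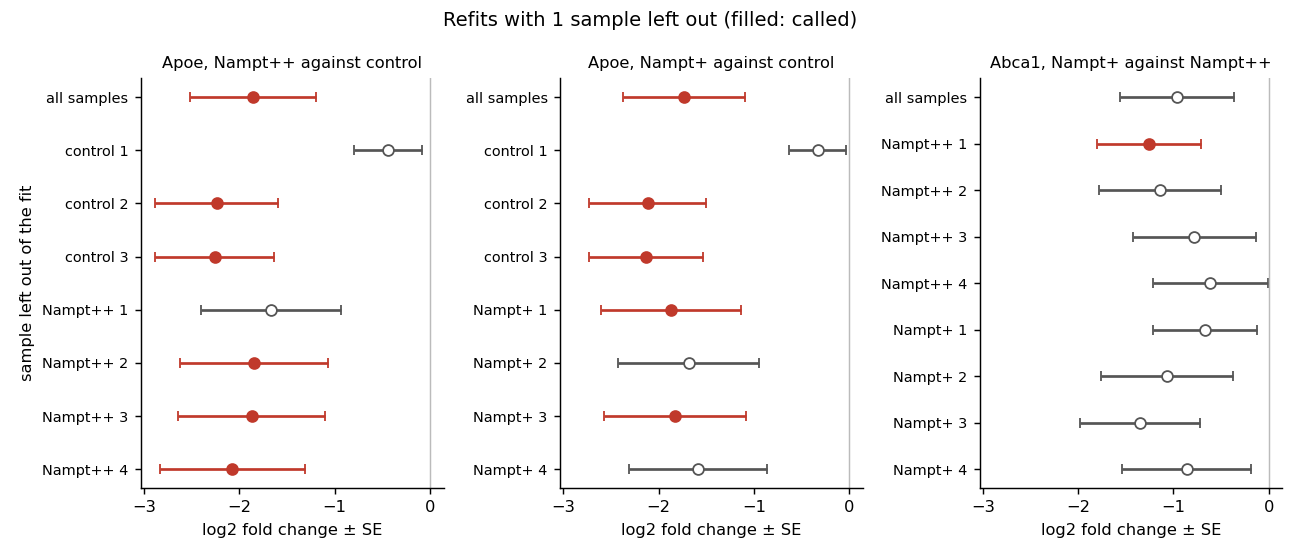
Log2 fold change ± SE from edgeR (x axis) of Apoe in both comparisons with the controls and of Abca1 in Nampt+ against Nampt++, with all samples and with each sample left out (y axis), filled where the call rule was met. For Apoe the value moves to -0.44 and -0.33 without control 1, and Abca1 is called without Nampt++ sample 1 alone.

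The other genes for lipoprotein particles were low or at 0. Apoc1, which lies in the same gene cluster as Apoe and encodes a small apolipoprotein, was at 1.71 FPKM in control 1, at most 1.12 FPKM elsewhere and listed at 0 in 7 of the 11 samples. Apoc2, Apoc4, Apob and Gpihbp1 were listed at 0 in all samples. Of the 14 genes of lipoproteins, lipases and particle remodelling only 4 passed the filter of a mean of 1 FPKM, and Apoe was the only one of them called.

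Pltp, which encodes the phospholipid transfer protein that remodels high density lipoproteins, was spread as widely within groups as between them. Its FPKM (ENSRNOG00000016488, chromosome 3, 161304469 to 161322289, minus strand) was 14.4, 14.1 and 25.6 in controls 1 to 3, 20.1, 10.3, 16.2 and 23.5 in Nampt++ samples 1 to 4, and 26.3, 22.8, 6.94 and 13.2 in Nampt+ samples 1 to 4. The highest and the lowest sample were both Nampt+ samples, and 2 rats went up and 2 went down between the samplings. The log2 fold changes were 0.28 ± 0.51 (SE) in Nampt+ against Nampt++, -0.06 ± 0.22 in Nampt++ against control and 0.21 ± 0.58 in Nampt+ against control, and exact permutation p values were at least 0.686. The gene most like Pltp over the samples was Alox12, the 12-lipoxygenase of platelets, with a Pearson r of 0.94 and a Spearman rho of 0.89 over 11 samples. The sum of 6 platelet markers was 15734 FPKM in Nampt+ sample 1, where Pltp was highest, and 1734 FPKM in Nampt+ sample 3, where Pltp was lowest. The platelet sum had an r of 0.77 and a rho of 0.66 with Pltp over 11 samples, and an r of 0.43 over 9 samples without these 2. The endothelial sum, with 1 marker at a mean of at least 1 FPKM, had an r of 0.76 and a rho of 0.80. Over 9 samples without Nampt++ sample 4 and Nampt+ sample 1 its r was 0.67. The part of any of these cells in the level of Pltp was not tested.

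Lpl, the lipase that frees fatty acids from triglyceride-rich particles, was the lowest of the 9 genes and the only one below the filter. Its FPKM (ENSRNOG00000012181, chromosome 16, 22537056 to 22561496, minus strand) was 0.731, 0.281 and 0.230 in controls 1 to 3, 0.271, 0.405, 0.511 and 0.972 in Nampt++ samples 1 to 4, and 0.0142, 0.319, 0.200 and 0.261 in Nampt+ samples 1 to 4. It was lower at Nampt+ than at Nampt++ in 4 of 4 rats, though the groups overlapped. The exact permutation test of that difference gave p = 0.0571, where 4 samples against 4 can reach 0.0286, but it ignores the pairing by rat. With the samples paired, an exact permutation of signs over the 4 rats gave p = 0.125, the smallest it can give. The value of Nampt+ sample 1 rests on 4 counts, against 61 to 245 in the other samples. In a fit without the filter the log2 fold change was -1.14 ± 0.80 (SE) in Nampt+ against Nampt++, 0.30 ± 0.56 in Nampt++ against control and -0.85 ± 0.93 in Nampt+ against control, and none was called.

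Of the 2 exporters, Abca1 was lower at Nampt+ than at Nampt++ in each of the 4 rats, and Abcg1 was not. ABCA1 passes cholesterol to lipid-poor apolipoproteins. Its FPKM (ENSRNOG00000018126, chromosome 5, 69857771 to 69983015, minus strand) was 1.13, 4.20 and 1.23 in controls 1 to 3, 0.722, 1.08, 2.63 and 3.93 in Nampt++ samples 1 to 4, and 0.346, 0.717, 2.06 and 0.912 in Nampt+ samples 1 to 4. Control 2 and Nampt++ sample 4 were the highest, and the groups overlapped. Within rats 1 to 4 the Nampt+ level was 0.480, 0.666, 0.780 and 0.232 times the Nampt++ level.

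The log2 fold change of Abca1 in Nampt+ against Nampt++ was -0.96 ± 0.59 (SE, edgeR adjusted p = 0.9996, exact permutation p = 0.200), with a ratio of mean FPKM of 0.482, and it was not called. None of the 8 genes tested was called in this comparison, beside 0.642% of all 11219 genes tested. With the rat as a replicate block, which fits the 2 samplings of each rat as a pair, Abca1 was called at -0.93 ± 0.36 (SE, edgeR adjusted p = 0.9999). That call uses the ratio of 0.482, and with haemoglobin genes left out the ratio was 0.528, short of the call rule in size. An exact permutation of signs over the 4 rats gave p = 0.125, the smallest it can give. Abca1 was also called without Nampt++ sample 1 (-1.26), and limma with the same block did not call it. Nampt+ samples were at -1.31 ± 0.72 (SE, exact permutation p = 0.286) and Nampt++ samples at -0.33 ± 0.74 (SE, exact permutation p = 0.8) against the controls, and these values became -0.05 and 0.92 without control 2, so control 2 set the size of the first and the direction of the second.

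Some markers of myeloid cells were also high in the 2 samples where Abca1 was highest. In control 2, 5 of 8 monocyte markers and 7 of 7 neutrophil markers were the highest of the 3 controls, while 7 of 7 T cell and 5 of 5 B cell markers were the lowest of them. In Nampt++ sample 4, 6 of 8 monocyte markers were the highest of the 4 Nampt++ samples, but 0 of 7 neutrophil markers were, and the monocyte sum of 9764 FPKM was the third of the 4. The summed monocyte markers had an r of 0.45 and a rho of 0.33 with Abca1 over the 11 samples. Of the 12 marker sums that of adipocytes, nearly all Fabp4, had the highest r with Abca1, 0.62 with a rho of 0.63, and 0.32 over 9 samples without Nampt++ samples 3 and 4. The part of any of these cells in the level of Abca1 was not tested.

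Abcg1, which passes cholesterol to mature high density lipoproteins, stood far above Abca1, at a mean of 19.6 against 1.72 FPKM, and no difference between its groups passed the test. Its FPKM (ENSRNOG00000001158, chromosome 20, 9743269 to 9840489, plus strand) was 17.0, 10.7 and 28.0 in controls 1 to 3, 24.0, 15.4, 14.1 and 22.0 in Nampt++ samples 1 to 4, and 21.4, 10.1, 34.0 and 18.8 in Nampt+ samples 1 to 4. By FPKM, whose total includes haemoglobin reads, it was lower at Nampt+ in 3 of 4 rats and 2.41 times higher in rat 3. In rat 1 haemoglobin genes took 6.84% of counts at Nampt++ and 25.9% at Nampt+. The ratio of mean FPKM in Nampt+ against Nampt++ was 1.12, and 1.20 with haemoglobin genes left out. The log2 fold changes were 0.18 ± 0.22 (SE), 0.06 ± 0.22 and 0.22 ± 0.26 in the order Nampt+ against Nampt++, Nampt++ against control and Nampt+ against control, with exact permutation p values of at least 0.743. The summed T cell markers had an r of 0.80 and a rho of 0.72 with Abcg1 over 11 samples. Over 9 samples without Nampt+ sample 2 and control 2, where that sum was lowest, the r was 0.52. The B cell sum had an r of 0.68 and a rho of 0.56, and the erythroid sum an r of -0.66 and a rho of -0.73. The part of any of these cells in the level of Abcg1 was not tested. The other exporters tested or listed were Abca7, at 9.65 FPKM on average and not called in any comparison, and Abcg4, which was below the filter at 0.0405 FPKM.

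Scarb1, the receptor SR-BI that takes up cholesterol esters from high density lipoproteins, was at a like level in 3 of the 4 Nampt+ samples and lower in the fourth. Its FPKM (ENSRNOG00000000981, chromosome 12, 36694960 to 36761455, plus strand) was 5.91, 12.1 and 7.22 in controls 1 to 3, 7.13, 7.26, 8.74 and 12.5 in Nampt++ samples 1 to 4, and 7.23, 4.10, 7.33 and 7.72 in Nampt+ samples 1 to 4. Nampt+ sample 2 stood below the others, and the level was lower at Nampt+ in 3 of 4 rats. The log2 fold change was -0.37 ± 0.17 (SE, edgeR adjusted p = 0.9996, exact permutation p = 0.257) in Nampt+ against Nampt++. The ratio of means was 0.741, short of the call rule in size and, in this fit, in p (edgeR unadjusted p = 0.0586). In the other settings with all samples the unadjusted p of edgeR, DESeq2 or limma ran from 0.0445 to 0.25. With single samples left out that of edgeR ran from 0.0117 to 0.14, and no setting called Scarb1, for the ratio stayed short of 2-fold. Against the controls it was -0.07 ± 0.38 (SE, exact permutation p = 0.686) at Nampt++ and -0.45 ± 0.36 (SE, exact permutation p = 0.571) at Nampt+, and without control 2 these values were 0.57 and 0.20.

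Among the other receptors 1 gene was called. Msr1, the class A scavenger receptor of macrophages that takes up modified lipoproteins, was at 1.13, 0.672, 2.05 and 4.20 FPKM in Nampt++ samples 1 to 4 and at 0.5004, 0.541, 0.356 and 1.27 FPKM in Nampt+ samples 1 to 4, lower at Nampt+ in 4 of 4 rats with overlapping groups. Its log2 fold change was -1.42 ± 0.57 (SE, edgeR adjusted p = 0.9996), and with the rat as a replicate block it was -1.35 and again called. The call was lost without Nampt++ sample 3 (-1.36), Nampt+ sample 1 (-1.27) or Nampt+ sample 3 (-1.17), and without Nampt++ sample 4 Msr1 was below the filter. Of the 9 receptor genes tested in this comparison 8 were below 0, with a median of -0.31, against a median of 0.00 over all genes. Lrp1, a large receptor for Apoe-containing particles, was at 8.54 to 16.0 FPKM in Nampt++ samples and 4.67 to 8.14 FPKM in controls. It was the only pathway gene whose groups did not overlap, beside 1.10% of all genes in this comparison, and its log2 fold change of 0.62 ± 0.32 (SE, edgeR adjusted p = 0.9999) was not called. None of the 9 genes reported here had groups that did not overlap in any comparison, beside 0.410% of all genes in Nampt+ against Nampt++ and 0.444% in Nampt+ against control.

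Soat1, the enzyme that esterifies cholesterol for storage, was the highest of the 9 genes, and no difference between its groups was called. Its FPKM (ENSRNOG00000004111, chromosome 13, 74035080 to 74077783, minus strand) was 16.4, 30.1 and 11.8 in controls 1 to 3, 34.8, 13.7, 32.1 and 30.7 in Nampt++ samples 1 to 4, and 18.6, 14.8, 32.0 and 41.2 in Nampt+ samples 1 to 4. The lowest sample was control 3 and the highest Nampt+ sample 4, and the groups overlapped. The log2 fold changes were -0.02 ± 0.28 (SE), 0.32 ± 0.48 and 0.29 ± 0.46 in the same order of comparisons, with exact permutation p values of at least 0.343. Without control 2, which was the highest control, the values against the controls were 1.06 at Nampt++ and 1.03 at Nampt+, and neither was called, since the ratio of means stayed short of 2-fold. Summed monocyte markers, most of them Lyz2, had an r of 0.92 and a rho of 0.84 with Soat1 over 11 samples, and an r of 0.86 over 9 samples without the 2 farthest. The single markers did not all share this, since in Nampt++ sample 1, where Soat1 was the highest of its group, 7 of 8 monocyte markers were the lowest. The hepatocyte sum, nearly all Tf, had an r of 0.83 and a rho of 0.89 with Soat1, and the part of any cell type in its level was not tested. The gene most like Soat1 was Bach1, a haem-binding transcriptional repressor, with an r of 0.98 and a rho of 0.87. Of 8 genes of ester storage and hydrolysis 6 were tested and 0 called in each comparison. The highest log2 fold change there was that of Pnpla2, a triglyceride lipase, at 1.18 ± 2.39 (SE) in Nampt++ and 1.52 ± 1.95 in Nampt+ against control. Pnpla2 was listed at 0 in controls 2 and 3 and in Nampt++ sample 1 and at 16.4 to 30.1 FPKM in the other 8 samples.

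Nr1h3, which encodes LXR alpha, was the most even of the genes among controls and spread in both CIA groups. Its FPKM (ENSRNOG00000013172, chromosome 3, 80004130 to 80012750, minus strand) was 1.09, 1.18 and 1.22 in controls 1 to 3, 1.83, 2.49, 1.15 and 3.39 in Nampt++ samples 1 to 4, and 2.84, 0.505, 1.73 and 3.50 in Nampt+ samples 1 to 4. In each CIA group 3 of 4 samples lay above all controls, and Nampt++ sample 3 and Nampt+ sample 2 did not. Group means were 1.17 ± 0.0662, 2.22 ± 0.955 and 2.14 ± 1.31 FPKM (SD) in controls, Nampt++ and Nampt+ samples. The log2 fold change was 0.85 ± 0.40 (SE, edgeR adjusted p = 0.9999, exact permutation p = 0.171) at Nampt++ and 0.74 ± 0.47 (SE, exact permutation p = 0.400) at Nampt+ against the controls, and neither was called. Without Nampt++ sample 3 the first was 1.05, and without Nampt+ sample 2 the second was 0.98, and both then met the call rule. In Nampt+ against Nampt++ it was -0.10 ± 0.45 (SE, exact permutation p = 0.8286). Nr1h2, which encodes LXR beta, was far higher, at 58.8 ± 13.3 FPKM (SD over 11 samples), and none of the 6 genes of LXR and its partners was called in any comparison. Among 14 genes found of those listed as LXR targets, 10 were tested and Apoe alone was called, in both comparisons with the controls. Their median log2 fold changes were 0.03, 0.05 and 0.11 in the order Nampt+ against Nampt++, Nampt++ against control and Nampt+ against control.

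Srebf2 was the steadiest of the 9 genes. Its FPKM (ENSRNOG00000007400, chromosome 7, 123381077 to 123438603, plus strand) was 18.6, 24.1 and 23.1 in controls 1 to 3, 22.1, 14.1, 26.3 and 29.6 in Nampt++ samples 1 to 4, and 19.3, 16.6, 27.5 and 20.5 in Nampt+ samples 1 to 4. The lowest and the highest sample were both Nampt++ samples. Its log2 fold changes were -0.02 ± 0.23 (SE), -0.02 ± 0.27 and -0.05 ± 0.27 in the same order of comparisons, with exact permutation p values of at least 0.714. The 20 enzymes of cholesterol synthesis, which SREBP2 induces, gave 19 tested and 0 called in each comparison. In Nampt+ against Nampt++ 15 of the 19 were below 0, with a median of -0.12 against 0.00 over all genes, and against the controls 8 of 19 were below 0 at Nampt++ and 10 of 19 at Nampt+. Of the 7 genes of the SREBP machinery none was called.

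**Figure D3:**
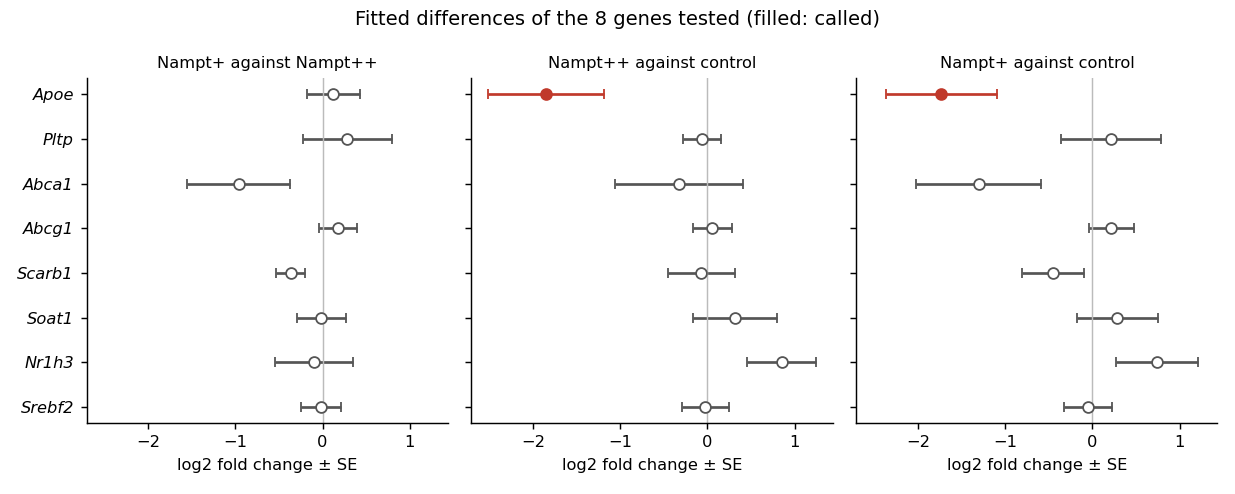
Log2 fold change ± SE from edgeR (x axis) of the 8 genes tested (y axis) in each comparison, filled where the call rule was met; Lpl was below the filter. Apoe at -1.86 and -1.74 against the controls was called, and Abca1 was lowest in Nampt+ against Nampt++ at -0.96.

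Counted over all the lists of the pathway, 86 of 88 genes were found, and 66 were tested in Nampt+ against Nampt++ and 65 in each of the other comparisons. Msr1 was called in the first and Apoe in each of the others. In Nampt+ against Nampt++ 45 of the 66 were below 0, with a median of -0.08, and against the controls 44 of 65 at Nampt++ and 41 of 65 at Nampt+ were above 0, each with a median of 0.06. The lowest after Msr1 in the first comparison was Abca1, and Gramd1a, a carrier of cholesterol to the endoplasmic reticulum, was at 0.42 ± 0.22 (SE). In Nampt++ against control the lowest after Apoe was Rxrb, a partner of LXR, at -0.33 ± 0.22 (SE), and the highest were Pnpla2 and Nr1h3, as they were in Nampt+ against control. Npc2, which carries cholesterol out of endosomes, had an unadjusted p under 0.05 in Nampt++ against control, at 83.4 against 51.2 FPKM, short of a 2-fold ratio (edgeR adjusted p = 0.9999).

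**Figure D4:**
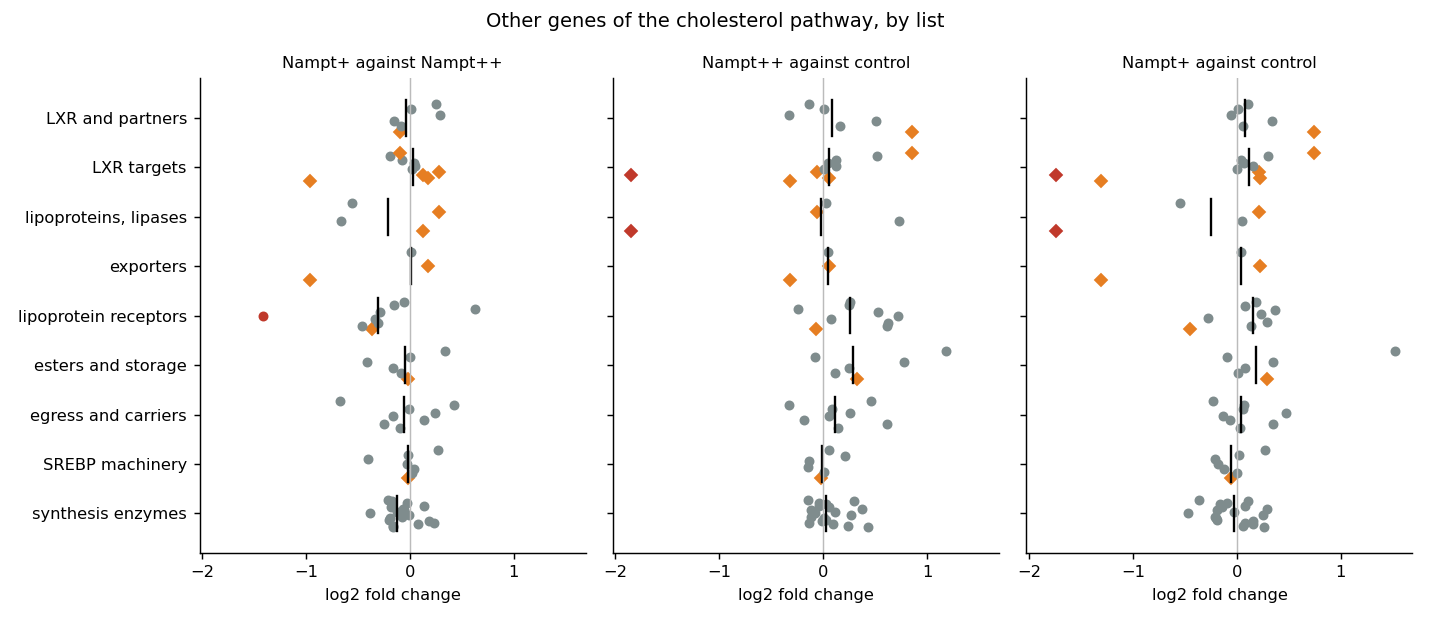
Log2 fold change (x axis) of each tested gene of 9 pathway lists (y axis) in each comparison, with the 9 genes as diamonds, other genes as circles, called genes in red and the median of a list as a black bar; a gene on several lists is drawn on each. Medians lie between -0.31 and 0.28, and the called genes are Msr1 and Apoe.

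The genes with the profile most like Apoe over the 11 samples were Faslg, the death ligand of cytotoxic lymphocytes, with an r of 0.90 and a rho of 0.83, and Ube2s, a ubiquitin-conjugating enzyme, with 0.89 and 0.82. Ly49s7, a receptor of the NK cell family Ly49, had 0.89 and 0.75, Rbp7, a retinol-binding protein, 0.87 and 0.47, and AABR07048992 0.87 and 0.72. Likeness was taken as Pearson's r of log2(FPKM + 1), with Spearman's rho after it, against 11241 genes, and the samples include 2 from each CIA rat. Rbp7 was at 30.7 FPKM in control 1 and at no more than 0.596 FPKM elsewhere. Such a level, over 2 times that of the next sample, was found in control 1 for 25 of 11242 genes (0.222%), Apoe among them. The same count was 203 in Nampt++ sample 1 (1.81%), 34 in Nampt++ sample 4, 31 in control 3 and 1 to 20 in the other samples. Without control 1 the 5 most alike genes were Chrne (r of 0.96), Ccdc120 (0.95), Rce1 (0.94), Lpxn (0.93) and Arhgap21 (0.93) over 10 samples, none of them among the first 5.

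For the other genes the single most alike gene was AABR07071765 for Abca1 (r of 0.90), Rbm34 for Abcg1 (0.98), Pqlc3 for Nr1h3 (0.93), LOC102548286 for Lpl (0.79), Adora2a, an adenosine receptor, for Scarb1 (0.90) and Traf3, an adaptor of TNF receptor signalling, for Srebf2 (0.96). Among the 9 genes themselves the closest pair was Abca1 and Scarb1, with an r of 0.79 and a rho of 0.72 over 11 samples, followed by Abca1 and Srebf2 at 0.69 and 0.74. The lowest was Soat1 and Pltp with an r of -0.29.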

How the data were processed

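RNA of peripheral leukocytes was compared in 3 controls and in 4 CIA rats sampled at Nampt++ and Nampt+ status. The authors prepared poly(A) libraries with U-labelled second strands and sequenced paired-end reads. The submitters' processing notes name cutadapt 1.9, HISAT2 2.0.4 and StringTie 1.3.4, and the genome build and the counting method, strand included, are not given in the sources used here. The deposited counts are whole numbers of reads per gene without normalization, and the deposited FPKM values were scaled by the authors by gene length and sample total, with 0.0001 standing for 0. Haemoglobin reads are part of that total, and reads shared by near-identical genes may have been split in ways not known here.

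Each pair of groups was fitted on its own in edgeR 4.0.16 (R 4.3.3), with TMM scaling of the counts and the quasi-likelihood test, and genes whose FPKM averaged 1 or more over the samples of that fit entered it. The call rule took the thresholds of the study, a ratio of mean FPKM above 2 or below 0.5 and an unadjusted p below 0.05, and the p of every tested gene was also adjusted by Benjamini-Hochberg. Each of the 9 genes was further compared by an exact two-sided permutation test of log2(FPKM + 1) over samples, a test added after seeing the data, whose p values are unadjusted. Alternatives were other scalings, no haemoglobin genes, other filters, DESeq2 1.42.0, limma 3.58.1 on log2(FPKM + 1) or log2(FPKM + 0.1), all groups in one fit, adjusted p alone, each sample left out in turn and, for the 2 CIA groups, the rat as a replicate block. Same-numbered CIA samples come from one rat by their descriptions, and their deviations from the means of their groups correlated at -0.27, -0.24, 0.23 and 0.09 for rats 1 to 4. A fold from the fitted difference and the likeness to Apoe without control 1 were added after seeing the data, as were the correlations of the genes with the summed marker lists.

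Named genes are the 9, the other pathway genes called, the 2 highest and 2 lowest fitted differences and the 3 highest levels among the pathway lists, and the most alike genes, 5 for Apoe and 1 for each other gene. A gene that this rule also names is not reported here. Lrp1, Npc2, Apoc1, the genes listed at 0, Nr1h2, Abca7 and Abcg4 were chosen after their values were seen. The 9 genes and all lists were chosen with earlier results of these data known. The marker lists were of monocytes, neutrophils, T, B and NK cells, platelets, erythroid cells, basophils and mast cells, endothelium, adipocytes, hepatocytes and retina. Arl4c and Cd36 were not found by symbol and were not analysed here. The test was tried on simulated counts.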

Additional observations from a re-analysis of the deposited data

Results flagged for a closer look

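Scarb1 in Nampt+ sample 2 stood apart from its group, at 4.098 FPKM against 7.23 to 7.721 FPKM in the other 3 Nampt+ samples. The gap to the nearest sample was 0.865 of the whole range, above Dixon's 95% critical value for 4 samples. It was 1 of 18 gene and group combinations examined this way, and chance flags about 1 in 20. Groups of 3, such as the controls with the high Apoe level, were not examined by this rule. The same sample had the lowest level of Apoe, Abcg1 and Nr1h3 of all 11 samples, and the lowest sums of T cell and NK cell markers, 316 and 55.8 FPKM. It also had the highest haemoglobin share of counts (42.8%), the highest erythroid sum (2100 FPKM) and the fewest genes with a count (15080), and 7 of 8 monocyte markers were the lowest of its group. The part of these values in the Scarb1 level was not tested.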

How the results depend on the processing

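Lpl, the lowest gene, had at least 61 counts in 10 of 11 samples and 4 in the other, where depth limits its value. Over 396 refits of the 8 tested genes, 339 kept the direction and the side of the call rule, 5 lost the call, 4 gained it and 48 changed sign. Apoe under the DESeq2 test against the controls, where no p was set and so no call could be made, is not among these refits. All 48 were of differences that had not been called, and the causes were not tested.

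Sign changes with all samples were small. Soat1 in Nampt+ against Nampt++ went to 0.0254 with upper quartile scaling and 0.0443 with a mean FPKM of at least 10, Srebf2 to 0.0135 and 0.0239, and Abcg1 in Nampt++ against control to -0.0273 and -0.0225. With limma at a pseudocount of 1 and 0.1, Pltp went to -0.11 and -0.13 in Nampt+ against Nampt++ and to -0.16 and -0.17 in Nampt+ against control. In Nampt++ against control Scarb1 went to 0.0948 and 0.108 and Srebf2 to 0.0261 and 0.0252 in the same fits.

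With the rat as a replicate block, Pltp was at -0.0560 by edgeR and -0.11 by limma. The block moved the count of the 9 genes called to 1 by edgeR (Abca1) and that of pathway genes to 2 (Abca1 and Msr1). All genes called were 56 by edgeR and 129 by limma with the block, and it changed no other call of the 9 genes.

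With single samples left out, the log2 fold changes in Nampt+ against Nampt++ ran from -0.068 to 0.33 for Apoe, -0.0335 to 0.28 for Abcg1, -0.37 to 0.15 for Nr1h3, -0.21 to 0.14 for Soat1, -0.26 to 0.58 for Pltp and -0.17 to 0.0797 for Srebf2. In Nampt++ against control they ran from -0.71 to 0.92 for Abca1, -0.10 to 0.25 for Abcg1, -0.0434 to 1.06 for Soat1, -0.19 to 0.0720 for Pltp, -0.32 to 0.57 for Scarb1 and -0.16 to 0.27 for Srebf2. In Nampt+ against control they ran from -0.0700 to 1.03 for Soat1, -0.33 to 0.50 for Pltp, -0.69 to 0.20 for Scarb1 and -0.22 to 0.24 for Srebf2.

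Of the 9 genes, 0 to 1 were called in Nampt+ against Nampt++, 0 to 2 in Nampt++ against control and 0 to 1 in Nampt+ against control with samples left out. For the pathway lists this was 0 to 2, 0 to 4 and 0 to 2, where the 4 were Apoe, Apoa2, Plin2 and Msr1 without control 2. Over all genes it was 58 to 165, 53 to 462 and 49 to 136, where 462 and 136 were without control 2. The DESeq2 test called 0 of the 9 genes and 0 pathway genes in both comparisons with the controls, as it set no p for Apoe. In the edgeR fits with all samples as reported, an adjusted p under 0.05 alone left 0 in every count. With samples left out, 0 to 2 of all genes had one. Among them was Pnpla2 in Nampt+ against control without control 1, at 14.95 (edgeR adjusted p = 0.0211), where controls 2 and 3 were listed at 0.

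Without a filter 2 pathway genes were called in Nampt+ against Nampt++ and 2 in Nampt++ against control, Apoc1 being the addition. A mean FPKM of at least 10, limma with a pseudocount of 0.1 and all groups in one fit each left 0 in Nampt+ against Nampt++, and limma called 2 in Nampt+ against control with either pseudocount, Pnpla2 beside Apoe. All genes called were 72, 77 and 56 as reported, 295, 306 and 261 without a filter and 19, 25 and 14 at a mean FPKM of at least 10. Nampt++ against control gave 154 and 140 by limma and 121 by DESeq2, and Nampt+ against control 85 by limma at a pseudocount of 1.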

Other observations

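The 4 oxysterol enzymes, which make or clear the ligands of LXR, were all below the filter of a mean of 1 FPKM. Ch25h was at 0.0336 to 0.555 FPKM over the 11 samples, Cyp27a1 at 0.0611 to 1.07 FPKM, Cyp46a1 at 0 to 0.215 FPKM and Cyp7b1 at 0 to 0.0884 FPKM. Soat2, the esterification enzyme of liver and intestine, was at 0.0681 FPKM on average.

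Srebf2 ran against the summed erythroid markers over the 11 samples, with a Pearson r of -0.72 and a Spearman rho of -0.65 on the log2(FPKM + 1) scale. Over 9 samples without Nampt++ sample 4 and Nampt+ sample 2 the r was -0.54. The samples include 2 from each CIA rat, FPKM values of a sample share one total, and no test was made.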
